A study of Caenorhabditis elegans with 12 samples.

Results

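The math and bath genes of Caenorhabditis elegans were followed in poly(A) RNA of whole adults. They were taken as every gene whose symbol is math or bath followed by a number, and 73 of the 46726 gene IDs in the count table met that rule, 37 math and 36 bath genes. Libraries came from N2, the laboratory wild type, and from the strain MT12993, which carries the n4115 allele of the microRNA gene mir-71. Each genotype was collected as whole animals at day 0 and at day 5 of adulthood, with 3 libraries per group, called biological replicates in the design text. All 4 groups, N2 included, were kept at 20 °C and moved to plates with 0.1 mg/mL 5-fluorodeoxyuridine, which blocks DNA synthesis, soon after the last molt. Age, time since that molt and time on the drug therefore cannot be told apart. The mutants are described by this allele alone, so a difference from N2 cannot be assigned to the loss of the microRNA rather than to another difference between the strains.

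The MATH domain is a fold, named after meprins and TRAF proteins, that binds short stretches of other proteins. A bath gene encodes a protein with a MATH domain joined to a BTB domain. In such proteins the BTB domain can dock onto the scaffold protein CUL-3 while the MATH domain holds a substrate, so that the substrate is marked with ubiquitin for degradation by the proteasome. MEL-26 is the classic example in C. elegans. It brings the microtubule-severing protein MEI-1 to CUL-3 after meiosis, and its gene is outside the rule because its symbol is neither math nor bath. Genes named math carry MATH domains, mostly without a BTB domain, and for most of them no function is given here. An exception is math-33, a deubiquitinase related to mammalian USP7, which in C. elegans acts on the transcription factor DAF-16.

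Most of the family sat at the left end of chromosome II. In the WBcel235 annotation 58 members, 35 math and 23 bath, lay between positions 1028972 and 3733181 of that chromosome, within its first 4 Mb. The remaining 15 members were 13 bath genes, on chromosomes I to V, and the 2 math genes math-33 on chromosome V and math-46 on chromosome I. Of all 73 members 52 lay in 9 clusters in which neighbours were at most 10 kb apart, and the largest cluster held 18. All 73 were annotated as protein coding. The bath genes of the left end had a median coding length of 915 bases, and 12 of these 23 had 5 separate exon blocks. The median was 1149 bases in the math genes there and 1161 in the bath genes elsewhere. Exons of 16 members overlapped those of another gene. The largest overlap was 610 of the 1695 exon bases of bath-27, shared with lido-14 on the same strand. Also on the same strand, math-3 shared 469 bases with F36H5.14 and bath-9 shared 208 with Y49F6C.2. Small overlaps on opposite strands were those of bath-46 with bath-26, 28 bases, and of bath-47 with bath-33, 22 bases. Neither counter nor strand setting is given in the sources used here, which leaves the counts of overlapping genes, and of close copies within the family, uncertain.

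The bath genes were the more strongly expressed group. Levels were compared between genes as CPM (counts scaled to 1 M per library, M for mega) per kb of exon, averaged over the 12 libraries. The median was 6.05 CPM per kb for the 36 bath genes and 0.479 for the 37 math genes. Bath genes had similar medians in both places, 6.12 at the left end of chromosome II and 5.98 elsewhere. No math gene of the left end exceeded 4.78 CPM per kb, the level of math-22. The 6 highest members were bath-42 at 177 CPM per kb, bath-40 at 135, bath-30 at 71.7, bath-41 at 67.4, bath-44 at 59.2 and math-33 at 57.3. All of these except bath-30 lie outside the left end.

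Every member had at least 1 count, and 63 had counts in all 12 libraries. A filter on low counts over the whole table left 60 members for testing, 25 math and 35 bath. The 13 that did not pass were math-5, math-6, math-7, math-9, math-13, math-16, math-19, math-23, math-25, math-28, math-31, math-42 and bath-33, with 1 to 83 counts summed over all libraries. A gene expressed in 1 group only passes this filter through that group, so counts below refer to tested members and not to the family as a whole.

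**Figure D1:**
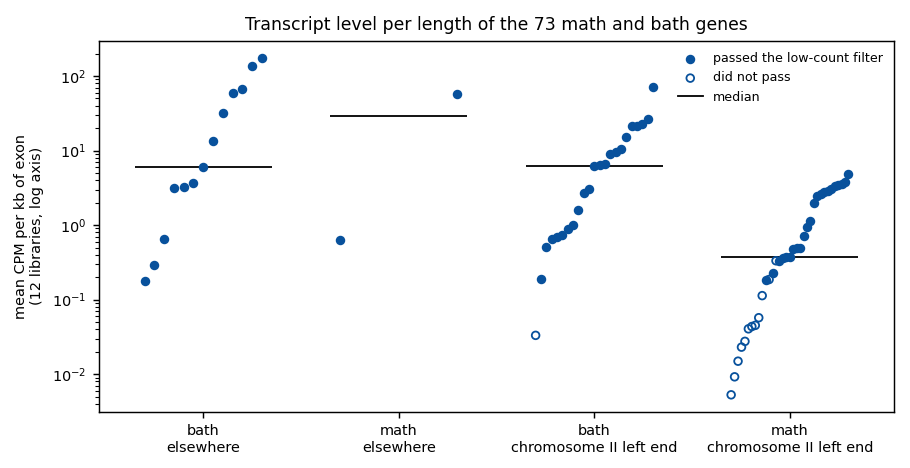
Mean level of each of the 73 genes in CPM per kb of exon over the 12 libraries, on a log axis, by subfamily and by place, with a line at each median. Filled points passed the low-count filter and open points did not. The math genes at the left end of chromosome II all lie at or below 4.78 CPM per kb, and the bath genes reach 177.

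Totals ranged from 20.5 to 65.2 M counts per library, and 3 counts, taken as the floor of detection, amounted to 0.045 to 0.157 CPM. The first principal component held 80.8% of the variance and separated the ages. On it the day 0 libraries numbered 1 lay nearest to day 5, at -82.9 in N2 and -75.4 in mutants against -104 to -153 for the other day 0 libraries. Among markers, all 10 tested oocyte genes rose with age in each genotype, while all 15 sperm, all 9 body wall muscle and all 7 hypodermis and cuticle genes fell. Of 8 intestinal genes 3 rose and 3 fell with age in N2. The labels could not be checked with mir-71 itself, because mature microRNAs lack the poly(A) tail used for selection. The host gene of mir-71, ppfr-1, stood at 183 ± 9.13 CPM in N2 and 637 ± 189 in mutants at day 0 (SD, n = 3), and at 164 ± 16 and 701 ± 108 at day 5. It was higher in mutants at both ages (log2 1.80 ± 0.20 SE, adjusted p = 0.00376, and 2.09 ± 0.20, adjusted p = 0.000171, edgeR), but the day 0 call was lost when only the day 0 groups were fitted (adjusted p = 0.174).

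The first comparison asked how the family changed with age in wild type. In N2 the abundant bath genes rose from day 0 to day 5, while the math genes changed in both directions. Of 60 tested members 25 rose and 9 fell at an adjusted p below 0.05 (edgeR's quasi-likelihood test, Benjamini-Hochberg over 16764 genes). Over all tested genes 52.1% were called, 23.8% up and 28.2% down, so the members' 41.7% up and 15% down stand beside a background in which more genes fell than rose. Among bath genes 17 of 35 rose and 4 fell, with a median log2 change of 0.63. Among math genes 8 of 25 rose and 5 fell, with a median of -0.16. The median over all tested genes was -0.09. In bulk RNA of whole animals, fewer cells of a type and less RNA per cell cannot be told apart.

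Summed over the 13 bath genes outside the left end, the level was 660.3, 515 and 589 CPM in the N2 day 0 libraries and 1119, 984 and 1176 at day 5. The 23 bath genes of the left end summed to 217, 185 and 185 CPM at day 0 and 349.8, 326 and 366 at day 5. In each of these sets the lowest day 5 library lay above the highest day 0 library. The 35 math genes of the left end summed to 66.9, 77.4 and 52.5 CPM at day 0 and 53.3, 55.7 and 44.4 at day 5, and the ages overlapped.

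**Figure D2:**
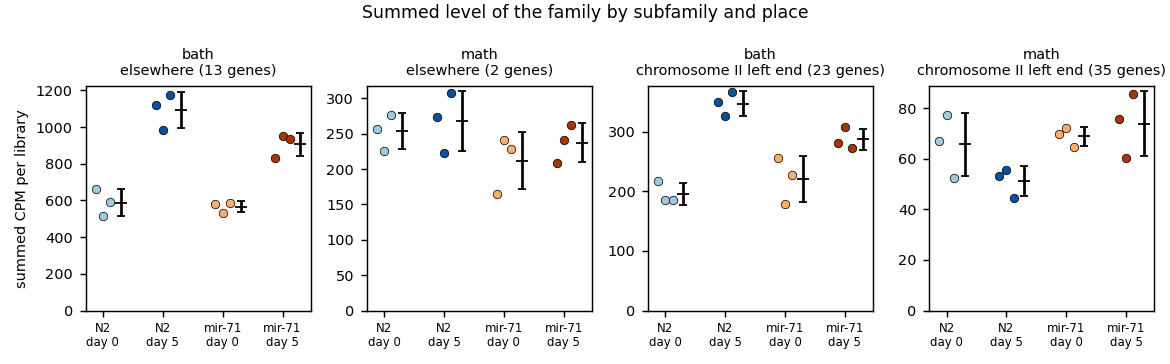
Summed CPM of each set of genes in every library (points), with the group mean and SD beside them, by genotype and age; each axis starts at 0. In N2 the bath sets lie higher at day 5 in every library, while the sets of math genes overlap between the ages.

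The most abundant adaptor-type member, bath-42 (WBGene00016803; chromosome III, 8161455 to 8163383, minus strand), had 246, 182 and 216 CPM in N2 at day 0 and 443, 409 and 485 at day 5. Its rise was 2.07-fold (log2 1.05 ± 0.13, adjusted p = 4.39e-05, edgeR). Every day 5 library lay above every day 0 library. Next in level, bath-40 (chromosome I, 14647782 to 14651288, plus strand) went from 149, 129 and 145 CPM to 314, 239 and 303, a 2.03-fold rise (adjusted p = 0.0001). On the left end, bath-30 (chromosome II, 3345218 to 3346378, minus strand) went from 49.6, 39.8 and 40.6 CPM to 113, 99.5 and 109, which is 2.47-fold (adjusted p = 2.12e-05). The ages did not overlap for either gene. The rises of bath-44 (1.58-fold, adjusted p = 0.000458) and bath-41 (1.71-fold, adjusted p = 0.00571) were smaller.

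The cluster of bath-30, between positions 3343731 and 3378834 of chromosome II, holds 7 bath genes. In N2 5 of them rose, 1, bath-23, fell and 1, bath-9, did not pass (adjusted p = 0.0939). The rises ran from 1.95-fold for bath-28 to 2.56-fold for bath-29. Among the 5, bath-27 shares 610 exon bases with lido-14 on the same strand, so its count is uncertain. In mutants 2 of the 7 rose, bath-30 and bath-29, and 1, bath-23, fell. In a second bath cluster, from 2014902 to 2046656, which holds 7 bath genes and math-1, only bath-21 (1.99-fold) and bath-19 (2.05-fold) rose, bath-20 fell 1.99-fold, and the other 5 did not pass.

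The largest rises in N2 belonged to members of low level. math-37 rose 5.22-fold (log2 2.39 ± 0.51, adjusted p = 0.00181) and math-44 rose 3.93-fold (adjusted p = 4.59e-05). The values of math-44 were 1.19, 1.73 and 1.5 CPM at day 0 and 5.18, 5.1 and 7.17 at day 5, without overlap. bath-47 rose 3.79-fold, from 1.09, 0.623 and 1.38 CPM to 3.99, 4 and 3.61 (adjusted p = 0.000505). Its neighbour bath-26 rose 3.15-fold (adjusted p = 0.00435). Others among the 10 largest were math-34 at 3.11-fold (adjusted p = 0.00331), math-45 at 2.75-fold (adjusted p = 0.0224) and math-8 at 2.63-fold (adjusted p = 0.0328), all edgeR. A nominal 3.38-fold rise of math-38 (adjusted p = 0.0254, edgeR) leaned on N2 day 5 replicate 1. Its N2 day 5 libraries had 0.722, 0.273 and 0.105 CPM, from 17, 14 and 2 counts, against 0.0973 to 0.12 CPM at day 0. Without N2 day 5 replicate 1 its log2 change went from 1.76 to 0.97 (adjusted p = 0.167), and the call was also lost without any N2 day 0 library (adjusted p of 0.0511 to 0.0738). By limma on the deposited log2 values the math-38 call was lost as well (adjusted p = 0.0584). The calls of math-45 (adjusted p of 0.0758 to 0.078) and of math-8 (0.061 to 0.122) were lost without N2 day 0 replicate 1 or 2 or day 5 replicate 1. That of math-8 was also lost without N2 day 0 replicate 3 or day 5 replicate 2. DESeq2 (adjusted p = 0.0845), no low-count filter (0.0657) and upper-quartile factors (0.052) lost the math-8 call too. Of the smaller rises, math-14 (1.86-fold, adjusted p = 0.0275) lost its call without N2 day 0 replicate 2 or 3 or day 5 replicate 1 or 3 (0.0596 to 0.0968). With upper-quartile factors math-14 lost it too (0.0514). math-49 (1.98-fold, adjusted p = 0.0151) lost its call without replicate 3 of N2 at either age (0.0641 and 0.0528).

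Falls with age in N2 differed in size, with bath-20 the smallest at 1.99-fold and math-48 the largest. math-48 (WBGene00022689; chromosome II, 1945438 to 1946527, minus strand) had 94 counts over the N2 day 0 libraries and 2 over those of day 5, with none in replicates 1 and 3. The ratio of the scaled levels was 35.7, with a 95% interval of 9.62 to 299 that covers counting error only (adjusted p = 0.000148, edgeR). Both day 5 counts were in replicate 2, and without that library the fitted log2 change went from -4.99 to -7.96, a value that depends on the prior count since no count is then left at day 5. bath-45 went from 2.35, 1.64 and 1.92 CPM to 0.382, 0.39 and 0.314, a 5.33-fold fall (adjusted p = 5.49e-05). math-22, the most abundant left-end math gene per length, fell 2.38-fold, from 7.86, 11 and 6.07 CPM to 3.35, 4.37 and 2.67 (adjusted p = 0.00188). In none of these genes did the ages overlap. The other falls in N2 were those of math-46 (3.65-fold), math-40 (3.12-fold), bath-46 (3.02-fold), bath-23 (3.01-fold), math-41 (2.38-fold) and bath-20 (1.99-fold). The bath-23 call was lost without N2 day 5 replicate 1 or 3 or day 0 replicate 2 (adjusted p of 0.0566 to 0.0997). The deubiquitinase gene math-33 did not pass with age in N2, at 257, 225 and 277 CPM at day 0 and 274, 223 and 308 at day 5 (log2 0.08 ± 0.17, adjusted p = 0.694).

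Markers of germ cells and of body tissues moved with age as well. The summed level of the oocyte markers was 2913 to 4242 CPM at day 0 and 7370.4 to 10011 at day 5 in N2, and 3109 to 3820.0 and 6594 to 8052 in mutants, with none of the 10 at 0 in any group. The sperm markers summed to 875 to 2053 CPM at day 0 and 6.76 to 10.5 at day 5 in N2, and to 767 to 1883 and 11.1 to 23.8 in mutants. Body wall muscle markers summed to 12656 to 21358 CPM at day 0 and 1914 to 2286 at day 5 in N2, and to 9223 to 19278 and 3352 to 3803 in mutants. Of 7 tested embryonic markers 5 rose in N2 and 4 in mutants, and none fell. The 11 listed embryonic genes summed to 6.97 to 11.3 CPM at day 0 and 16 to 21 at day 5 in N2, and to 7.69 to 8.6 and 15.8 to 18.6 in mutants. Much of that sum was elt-7, with means of 5.47 and 9.84 CPM in N2 and 4.35 and 9.9 in mutants. Its libraries overlapped between the ages in N2. Of 9 neuronal markers 1 rose and 5 fell in N2 (median log2 change -0.65), while 3 rose and none fell in mutants (median 0.24). Their sum was 316 to 329 CPM at day 0 and 368 to 444 at day 5 in N2, higher although the median change was negative, and 298 to 347 and 501 to 591 in mutants. In N2 snb-1, the 1 neuronal marker that rose, had a mean of 139 CPM at day 0 and 251 at day 5. Of 10 germline markers 2 rose and 4 fell in N2, and 1 rose and 5 fell in mutants. The part of these tissues in the changes of the family was not tested.

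In mutants bath-42, bath-40, bath-30 and bath-44 again rose with age. Of 60 tested members 16 rose and 10 fell, where 52.3% of all tested genes were called, 24.9% up and 27.4% down. The members' shares were 26.7% and 16.7%. Among bath genes 9 rose and 7 fell (median log2 change 0.24), and among math genes 7 rose and 3 fell (median 0.36), beside a median of 0.01 over all tested genes. Without mutant day 5 replicate 2 or 3 the number of falls dropped to 6, and with only the mutant groups fitted and the replicate number as a block it was also 6. Of the 25 members with a rise in N2, 15 passed in the same direction in mutants, 10 did not pass there, and none fell. The 10 were bath-4, bath-10, bath-15, bath-21, bath-27, bath-28, bath-34, bath-41, math-37 and math-49. A call in 1 genotype only does not show a difference between genotypes, and the test of that difference passed for none of the 10 (adjusted p of 0.184 for bath-27 to 0.795 for bath-10).

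Summed levels of the bath genes were higher at day 5 in mutants too, which rests mainly on a few abundant genes. The 13 bath genes outside the left end summed to 580.4, 533 and 585 CPM at day 0 and 833, 949.8 and 933 at day 5. The left-end bath genes summed to 256, 178 and 227 CPM at day 0 and 280.3, 308 and 273 at day 5. The ages did not overlap in either set. On the left end only 5 of 22 tested bath genes rose and 4 fell, and bath-30, from a mean of 51.4 to 91.4 CPM, and bath-29, from 17.4 to 37.8, made up most of the gain. bath-42 rose 1.66-fold in mutants, from 211, 191 and 211 CPM to 305, 359.8 and 353 (adjusted p = 0.000548), and bath-40 rose 2.06-fold, from 105, 128 and 139 to 227, 261 and 278 (adjusted p = 8.26e-05). bath-30 rose 1.78-fold (adjusted p = 0.00046), bath-44 1.49-fold (adjusted p = 0.00117) and bath-38 2.03-fold (adjusted p = 0.000115). For bath-41 the log2 change was 0.24 ± 0.20 (adjusted p = 0.321).

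Several math genes of low level had larger fitted rises in mutants than the largest in N2, though none of the next 3 passed the test of the difference between genotypes (adjusted p of 0.168 for math-38, 0.264 for math-10 and 0.243 for math-34). math-38 went from 0.0374, 0.12 and 0.134 CPM to 2.44, 1.99 and 2.25, a 23.4-fold rise (log2 4.55 ± 0.56, adjusted p = 3.37e-05, edgeR). math-10 rose 10.2-fold (log2 3.34 ± 0.54, adjusted p = 0.000252) and was the only member to pass in mutants and not in N2 among those that rose. math-34 went from 0.187, 0.12 and 0.179 CPM to 1.33, 1.11 and 1.83, an 8.85-fold rise (adjusted p = 2.63e-05). Ages did not overlap in any of these. bath-47 rose 5.74-fold (adjusted p = 6.79e-05), math-8 4.87-fold (adjusted p = 0.00237), math-14 4.54-fold (adjusted p = 0.000107), math-45 4.17-fold (adjusted p = 0.00473), and math-44 and bath-26 each 3.05-fold (adjusted p = 0.000172 and 0.00595). The size for math-8 depended on mutant day 0 replicate 2, without which its log2 change went from 2.28 to 3.10.

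Falls in mutants were led by math-48, with 92 counts at day 0 and 8 at day 5, a scaled ratio of 12.1 with a counting interval of 5.91 to 28.9. Without mutant day 0 replicate 2, which held 65 of the 92, its fitted log2 change went from -3.42 to -2.76. bath-45 fell 3.45-fold (adjusted p = 0.000269), bath-20 2.5-fold (adjusted p = 0.00134) and math-22 2.23-fold (adjusted p = 0.0029), as in N2. bath-24 fell 1.88-fold (adjusted p = 0.00461), bath-35 1.74-fold, bath-7 1.73-fold and bath-36 1.65-fold, none of which passed in N2. The remaining calls, bath-23 (2.45-fold) and math-40 (2.09-fold), were the least secure with those last 3. bath-36 lost its call without mutant day 0 replicate 2 or any mutant day 5 library (adjusted p of 0.0504 to 0.0816), bath-35 without mutant day 5 replicate 2 or 3 (0.0514 and 0.0506) and bath-7 without mutant day 5 replicate 3 (0.0579). math-40 lost its call without mutant day 0 replicate 1 or day 5 replicate 2 (0.0851 and 0.0917), and bath-23 without N2 replicate 1 of either age, mutant day 0 replicate 1 or 3, or mutant day 5 replicate 2 or 3 (0.0511 to 0.123).

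**Figure D3:**
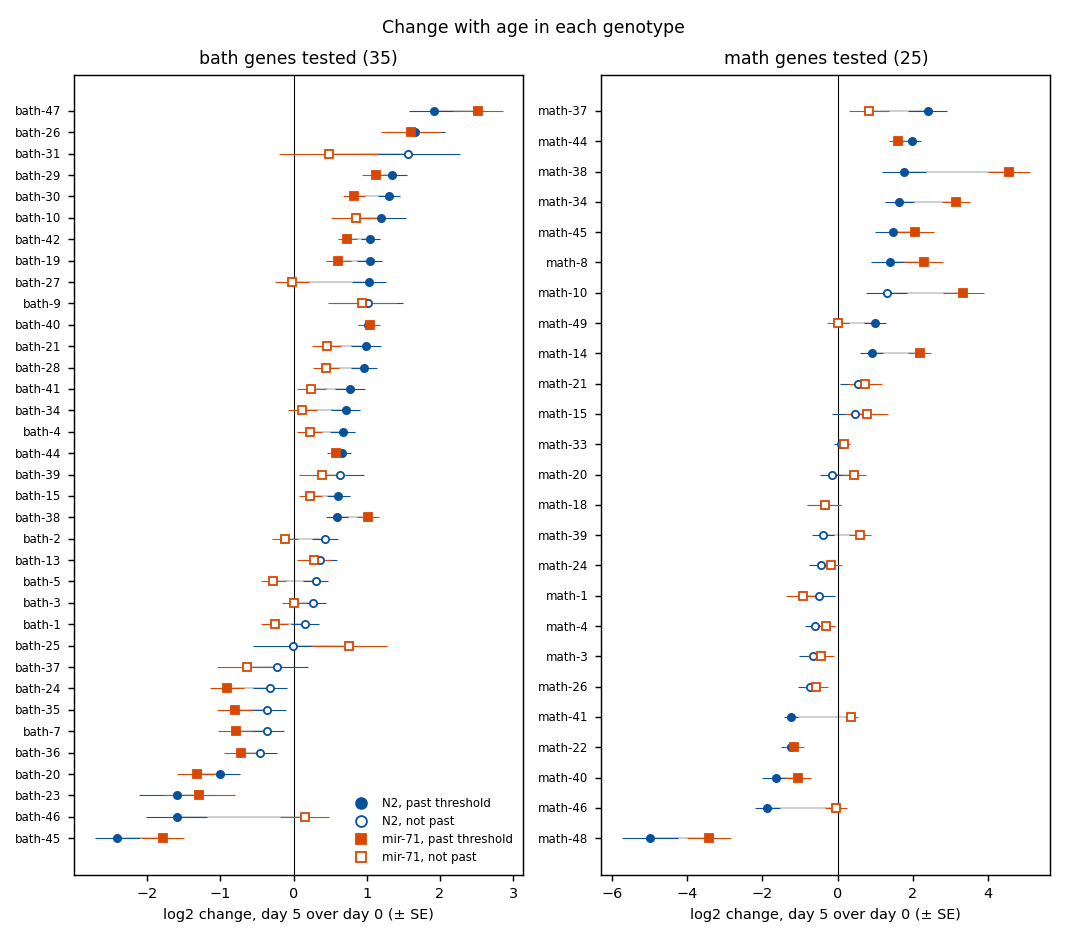
Log2 change from day 0 to day 5 (± SE) of the 35 tested bath and the 25 tested math genes in N2 (circles) and in mir-71 mutants (squares), ordered by the change in N2 and joined by a grey line; filled symbols passed the test. The genotypes lie close together for most bath genes. Among the wide gaps, math-38, math-10, math-46, bath-46 and math-41 have the higher change in mutants, and math-37 has the higher change in N2. Of all gaps only that of math-41 passed the test of the difference.

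Between genotypes at day 0 no member passed. Of all tested genes 0.131% were called in that comparison, 0.0716% higher and 0.0597% lower in mutants. No tested member had an unadjusted p below 0.05 in the main edgeR fit or by limma on the deposited log2 values, and 1, bath-38, had by DESeq2. In edgeR fits there were 7 such members without mutant day 0 replicate 2 and 2 without N2 day 0 replicate 1. None passed the adjusted threshold there, and the share of all genes at the unadjusted cut-off was not counted. With the replicate number as a block no member passed either, and 1, math-45, had an unadjusted p below 0.05. The median log2 difference of the 60 members was 0.05, beside 0.00 over all tested genes. For math-41 the values were 8.82, 9.19 and 8.86 CPM in N2 and 8.6, 9.98 and 8.18 in mutants, which overlap.

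At day 5 the genotypes differed in some left-end math genes. Of 60 tested members 8 were higher and 2 lower in mutants, where 10.7% of all tested genes were called, 7.63% higher and 3.1% lower. Among math genes 6 of 25 were higher and 1 lower (median log2 difference 0.53), and among bath genes 2 of 35 were higher and 1 lower (median -0.30), beside a median of 0.05 over all tested genes. Most of these calls were close to the threshold. The count was 4 without replicate 1 of either genotype at day 5, 3 without N2 day 5 replicate 3 and 5 without mutant day 5 replicate 3. It was 3 without all 4 libraries numbered 1. Only math-41, math-38 and bath-46 passed without each library in turn.

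The largest difference was that of math-38 (WBGene00020326; chromosome II, 1577378 to 1579986, minus strand), with 0.722, 0.273 and 0.105 CPM in N2 at day 5 and 2.44, 1.99 and 2.25 in mutants. It was 6.05-fold higher in mutants (log2 2.60 ± 0.49, adjusted p = 0.0067, edgeR). Every mutant library lay above every N2 library, and the N2 libraries differed widely among themselves. Without N2 day 5 replicate 1, the highest of them, the log2 difference went to 3.39 (adjusted p = 0.00431). The next bath gene along the chromosome, bath-46 (1597906 to 1599488, plus strand), had 0.212, 0.156 and 0.105 CPM in N2 and 0.635, 1.09 and 0.709 in mutants, 5.04-fold higher (log2 2.33 ± 0.40, adjusted p = 0.00421). The genotypes did not overlap. The N2 values of bath-46 rest on 5, 8 and 2 counts, and 28 of its exon bases are shared with bath-26 on the opposite strand, which did not pass (log2 -0.58 ± 0.39, adjusted p = 0.351).

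The strongest call was that of math-41 (WBGene00020360; chromosome II, 1824629 to 1830228, plus strand), a gene of no stated function here. At day 5 it had 3.69, 4.24 and 3.3 CPM in N2 and 10.5, 12.8 and 11 in mutants. It was 3.05-fold higher in mutants (log2 1.61 ± 0.19, adjusted p = 0.000429, edgeR), and every mutant library lay above every N2 library. Its level had fallen 2.38-fold with age in N2 (log2 -1.25 ± 0.19, adjusted p = 0.000135), whereas in mutants the change with age was 0.36 ± 0.18 (adjusted p = 0.112). Both calls were kept without each library in turn.

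The difference between the changes with age was tested directly, and math-41 was the only member to pass. In that test 0.555% of all tested genes were called, 0.453% with a higher change in mutants. An unadjusted edgeR p below 0.05 was seen in 13 of 60 tested members. The share of all genes at that cut-off was not counted, so that number cannot show whether the family holds an excess. For math-41 the change with age was higher in mutants by 1.61 ± 0.26 on the log2 scale (adjusted p = 0.0252, edgeR). The call was near the threshold. It was lost without N2 day 5 replicate 1 (adjusted p = 0.0715) or 3 (0.0865), without mutant day 5 replicate 1 (0.0558) or 2 (0.0599), without N2 day 0 replicate 2 (0.0514) or 3 (0.065) and without mutant day 0 replicate 3 (0.0866). On leaving out any library the log2 value did not exceed 1.70, and it kept its sign. No marker on any of the tissue lists passed this test. The median log2 difference was 1.10 for sperm, 1.10 for body wall muscle and 1.09 for hypodermis and cuticle markers. It was 0.70 for neuronal and 0.15 for intestinal markers. For oocyte, germline and embryonic markers it was -0.04, -0.29 and -0.34, beside 0.06 over all tested genes. The part of these tissues in the result was not tested.

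The neighbours of math-41 on the same strand did not all follow it. math-40 starts 403 bases past the end of math-41, and math-39 follows 534 bases past the end of math-40. math-39 had 2, 2.79 and 1.83 CPM in N2 at day 5 and 5.42, 3.74 and 5.67 in mutants, 2.22-fold higher (log2 1.15 ± 0.30, adjusted p = 0.0314). Its call was lost without replicate 1 or 3 of either genotype at day 5 (adjusted p of 0.0895 to 0.136) or mutant day 0 replicate 3 (0.0516). math-40 had 1.36, 0.625 and 0.733 CPM in N2 and 1.44, 1.03 and 1.47 in mutants, which overlap, and did not pass (log2 0.55 ± 0.37, adjusted p = 0.363). With age math-40 fell in both genotypes, 3.12-fold in N2 (adjusted p = 0.00271) and 2.09-fold in mutants (adjusted p = 0.0238), and math-39 passed in neither.

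Of the other math genes higher in mutants at day 5, math-34 and math-14 lie at the left end of chromosome II and math-46 on chromosome I. That end holds 23 of the 25 tested math genes, so a call there is no sign of a pattern by place. math-34 had 0.637, 0.527 and 0.524 CPM in N2 and 1.33, 1.11 and 1.83 in mutants, 2.52-fold higher (adjusted p = 0.0261). Its call was lost without any N2 day 5 library or mutant day 5 replicate 1 or 3 (adjusted p of 0.0642 to 0.101). math-14 had 3.31, 2.19 and 2.93 CPM in N2 and 5.95, 4.24 and 8.36 in mutants, 2.21-fold higher (adjusted p = 0.0331). The groups did not overlap in either gene. The math-14 call was lost without any N2 day 5 library, mutant day 5 replicate 1 or 3 or mutant day 0 replicate 3 (0.0504 to 0.115). math-46 had 0.17, 0.215 and 0.262 CPM in N2 and 0.424, 0.61 and 0.684 in mutants, 2.65-fold higher (adjusted p = 0.0204). Its call was lost without N2 day 5 replicate 1 or 3 or mutant day 5 replicate 2 or 3 (0.0518 to 0.0824), and also without the low-count filter (0.0518). Of its exon bases 144 are shared with Y8G1A.3 on the opposite strand.

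Against this direction, math-37 (chromosome II, 2116884 to 2122191, minus strand) was lower in mutants at day 5. It had 2.84, 1.46 and 2.04 CPM in N2 and 0.572, 0.289 and 0.562 in mutants, a 4.46-fold difference (log2 -2.16 ± 0.50, adjusted p = 0.0181). Every N2 library was above every mutant library. The call was lost without replicate 1 of either genotype at day 5, N2 day 5 replicate 3 or mutant day 5 replicate 2 (adjusted p of 0.0584 to 0.0738). Of the bath genes, bath-38 (chromosome II, 10042780 to 10045270, minus strand) was higher in mutants, with 21, 23.5 and 19.5 CPM in N2 and 37.7, 33.4 and 35.5 in mutants (1.66-fold, adjusted p = 0.0093). That call was narrowly lost without N2 day 5 replicate 3 or mutant day 5 replicate 1 (adjusted p = 0.0524 and 0.0509). bath-19 was lower in mutants, with 22.8, 18.2 and 23.5 CPM in N2 and 12.6, 15.3 and 15.7 in mutants (1.48-fold, adjusted p = 0.0482), and the groups overlapped in neither of these bath genes. The bath-19 call was lost without any 1 of 9 libraries, which are all but N2 day 5 replicate 2 and mutant day 0 replicates 1 and 2 (adjusted p of 0.054 to 0.205). It was also lost with the replicate number as a block (0.0514), without the low-count filter (0.149) and with upper-quartile factors (0.064).

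The abundant bath genes did not pass between genotypes at day 5. For bath-42 the log2 difference was -0.39 ± 0.13 (adjusted p = 0.0729), and it passed with DESeq2 (-0.48, adjusted p = 0.0161), with RLE size factors (-0.48, adjusted p = 0.0474) and with limma on the deposited log2 values (-0.34, adjusted p = 0.0371). For bath-40 it was -0.16 ± 0.14 (adjusted p = 0.502), for bath-30 -0.23 ± 0.14 (adjusted p = 0.326), for bath-44 -0.23 ± 0.11 (adjusted p = 0.216) and for bath-41 -0.41 ± 0.20 (adjusted p = 0.188). Each of these estimates was negative, that is lower in mutants. math-33 stood at 268 ± 42.6 CPM in N2 and 237 ± 27.5 in mutants at day 5 (SD, n = 3), a log2 difference of -0.18 ± 0.17 (adjusted p = 0.523, edgeR).

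Markers of other tissues differed at day 5 as well. Of 9 neuronal markers 4 were higher in mutants, and the summed level of all 9 was 368 to 444 CPM in N2 and 501 to 591 in mutants. Much of that sum was snb-1, which did not pass, with means of 251 and 297 CPM. Of 9 body wall muscle markers 3 were higher, with a sum over all 9 of 1914 to 2286 CPM in N2 and 3352 to 3803 in mutants. Of 7 hypodermis and cuticle markers 1, col-19, was higher, and all 7 summed to 88.6 to 137 and 266 to 446 CPM. That last sum was almost all col-19, with means of 113 CPM in N2 and 325 in mutants. Of 8 intestinal markers 1 was higher and 2 were lower. None of the 10 oocyte and 10 germline markers passed, though every one lay lower in mutants (median log2 difference -0.24 and -0.43). None of the 15 sperm markers passed either, and all 15 lay higher (median 0.86). The median over all tested genes was 0.05. The part of these tissues in the differences of the math and bath genes was not tested.

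**Figure D4:**
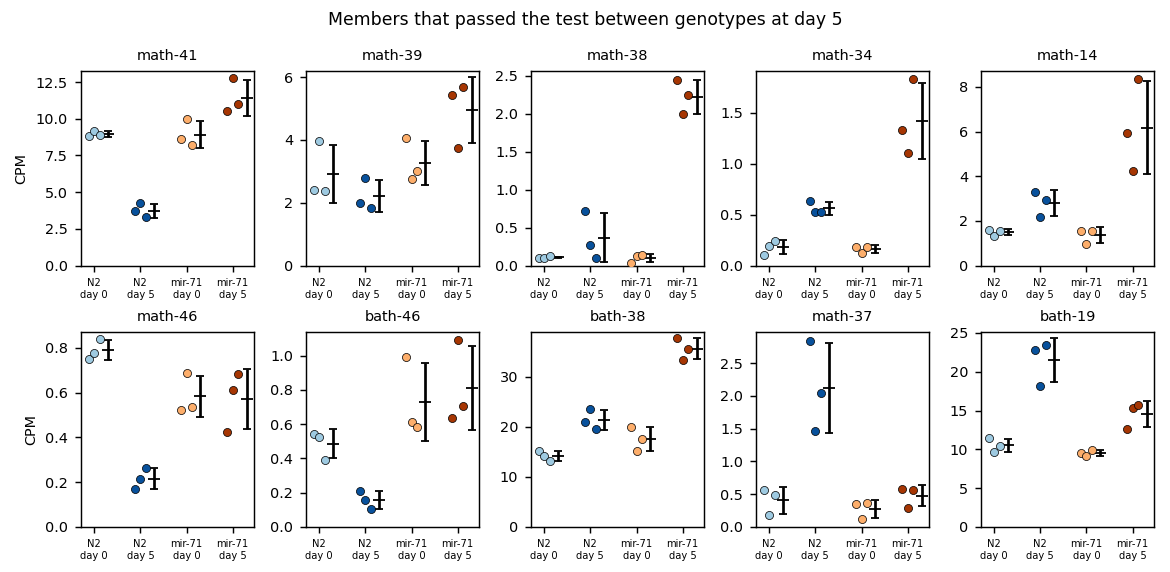
CPM in every library (points) with mean and SD for the 10 members that passed between genotypes at day 5; each axis starts at 0. At day 5 the mutant libraries lie above all N2 libraries in 8 genes and below them in math-37 and bath-19, while at day 0 none passed.

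**Figure D5:**
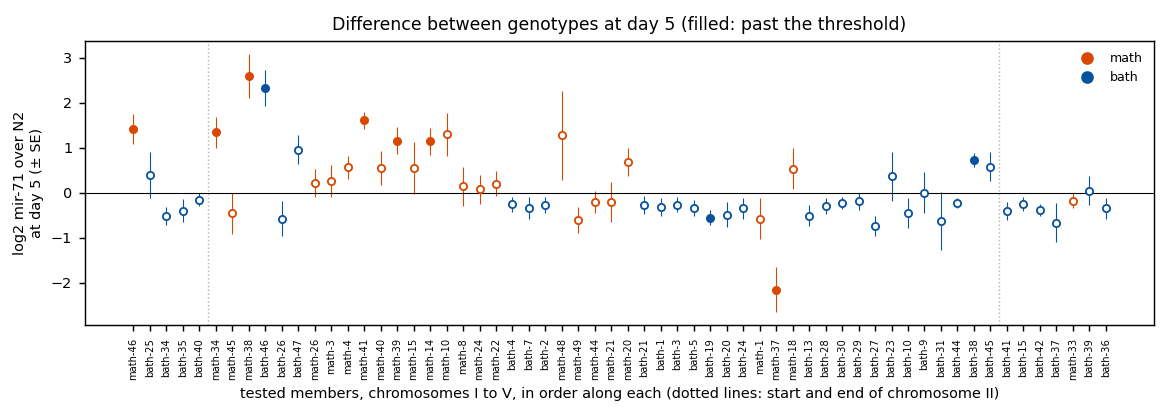
Log2 difference of mutants over N2 at day 5 (± SE) for the 60 tested members, in their order along chromosomes I to V; filled points passed the test. The called math genes other than math-46 lie on chromosome II, from math-34 to math-37, among members that did not pass. The left end of that chromosome holds 23 of the 25 tested math genes.

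Cullin ligase machinery, with the scaffold that BATH proteins join, was followed by a list of 19 genes. These were cul-3, the RING genes rbx-1 and rbx-2, neddylation and signalosome genes, mel-26 with its substrate genes, and kel-8. All 19 were tested. With age in N2 12 rose and none fell (median log2 change 0.42), and in mutants 8 rose and none fell (median 0.40). These are 63.2% and 42.1% of the list, beside 23.8% and 24.9% up over all tested genes. Under the alternatives the count was 8 to 13 in N2 and 7 to 9 in mutants, and in N2 the calls of csn-3, csn-4, csn-6 and ubc-12, and in mutants those of dcn-1 and ula-1, were lost under some. The least stable, csn-6 (adjusted p = 0.042), was lost under 14 of them. cul-3 itself, the scaffold, did not pass, at 0.38 ± 0.19 in N2 (adjusted p = 0.111) and 0.40 ± 0.19 in mutants (adjusted p = 0.0938). It passed without N2 day 5 replicate 2 in N2 (0.51, adjusted p = 0.0373) and without mutant day 5 replicate 1 in mutants (0.54, adjusted p = 0.0436). It also passed with only the compared groups and the replicate number as a block, at 0.35 in N2 (adjusted p = 0.0485) and 0.37 in mutants (adjusted p = 0.0481).

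The adaptor gene mel-26 rose, as did the abundant bath genes. It had 186, 116 and 131 CPM in N2 at day 0 and 324, 330.2 and 333 at day 5, a 2.29-fold rise (log2 1.19 ± 0.18, adjusted p = 0.000164). In mutants it went from 188, 126 and 147 CPM to 269, 303 and 271 (log2 0.87 ± 0.18, adjusted p = 0.00149). The ages did not overlap in either genotype. The substrate gene mei-1 rose by a log2 of 1.19 in N2 and 1.04 in mutants (adjusted p = 0.000109 and 0.000269), and its partner mei-2, also part of the severing enzyme katanin, by 1.28 and 1.07 (adjusted p = 1.28e-05 and 4.01e-05). Between genotypes at day 5 csn-1, a signalosome subunit that takes part in removing NED-8 from cullins, was the 1 gene of the list to pass. It was lower in mutants by a log2 of -0.54 ± 0.15 (adjusted p = 0.0438), a call lost without any 1 of the same 9 libraries that bath-19 depended on (adjusted p of 0.0512 to 0.191), and without N2 day 5 replicate 3 its size went to -0.34.

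Other families of ubiquitin ligase adaptors were counted in the same way. Of the fbxa genes, F-box proteins, a family known to act with another cullin, 129 of 170 were tested, of which 31 rose and 24 fell with age in N2 (median log2 change -0.04), while of 48 tested fbxb genes 24 rose and 1 fell (median 1.52). These are 24% and 50% up, beside 23.8% over all tested genes. In mutants 41 fbxa genes rose and 25 fell (median 0.40) and 13 fbxb genes rose and 3 fell (median 1.01), or 31.8% and 27.1% up beside 24.9%. Of 27 tested fbxc genes 8 rose and 3 fell in N2, and 11 and 3 in mutants. Of 16 btb genes, which encode BTB proteins, 4 rose and 1 fell in N2, and 6 and 2 in mutants. The shares up were 29.6% of fbxc and 25% of btb genes in N2, and 40.7% and 37.5% in mutants. Between genotypes at day 5 10 fbxa genes were higher and 2 lower in mutants, none of the fbxb and fbxc genes passed, and 1 btb gene was higher. The fbxa shares were 7.75% higher and 1.55% lower, near the 7.63% and 3.1% over all tested genes. The btb share was 6.25% higher. No difference between these families and the math and bath genes was tested.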

How the data were processed

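The deposited table held read counts per gene and library, whole numbers that had not been scaled. A second table deposited by the authors gave log2 values of those libraries, named rlog (regularized log) per the labels. The submitters' processing notes name STAR 2.4.0h, DESeq2 and the build WBcel235, and neither counter, annotation nor strand is given in the sources used here. Symbols came from a names table, which matched 43623 of 46726 IDs, and positions from the Ensembl annotation of the same build.

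Everything else was computed in R 4.3.3. Library sizes were adjusted by TMM (0.868 to 1.17), and counts were filtered with filterByExpr (16764 genes) and fitted with 4 group means to 12 libraries in edgeR 4.0.16 (common dispersion 0.0714, 8 residual degrees of freedom). Contrasts used the quasi-likelihood F-test with Benjamini-Hochberg adjustment over all genes and a threshold of 0.05. The standard error is the log2 change over the square root of F. The fit was tested on simulated counts. The p-values measure the spread between libraries labelled as replicates.

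Same-numbered libraries deviated together between genotypes at day 0 (correlations of 0.76, 0.66 and 0.28). In the other contrasts the correlations ran only from -0.16 to 0.24, so the replicate block is an alternative. Others were RLE and upper-quartile factors, no filter (26672 genes), only the compared groups, DESeq2 1.42.0, limma 3.58.1 on the deposited log2 values, and leaving out each library. No replicates were identical (chi-square per gene of 28.7 to 318).

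Named were members passing between genotypes, the 10 largest rises and falls with age per genotype, the 6 highest per length, math-41 and math-33, and from the CUL-3 list cul-3, mel-26, mei-1, mei-2 and genes passing between genotypes. Members, lists and rules were chosen with earlier results of these data known. Other members are named where a count of 10 or fewer is spelled out, chosen after their values were seen.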

Additional observations from a re-analysis of the deposited data

Results flagged for a closer look

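math-41 changed differently with age in the 2 genotypes, by a direct test of that difference. The log2 change from day 0 to day 5 was higher by 1.61 ± 0.26 in mir-71 mutants than in N2 (adjusted p = 0.0252, edgeR, 3 libraries per group). Levels were 8.96 ± 0.203 and 3.74 ± 0.471 CPM in N2 at day 0 and day 5, and 8.92 ± 0.94 and 11.4 ± 1.23 CPM in mutants (SD). Leaving out any 1 of 7 libraries moved the adjusted p above the threshold, to at most 0.0866.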

How the results depend on the processing

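Counts of members that rose or fell with age in N2 stayed within 1.5 times under each alternative run (20 to 28 rising, 7 to 12 falling), as did those rising in mutants (15 to 20), and none passed between genotypes at day 0 in any. The 10 falls in mutants became 6 with only the mutant groups and a replicate block, 4 without the 4 libraries numbered 1, and 6 to 10 on leaving out 1 library. The 10 members passing at day 5 became 3 without the libraries numbered 1 and 3 to 11 on leaving out 1 library, and were 14 by DESeq2, 13 by limma on the deposited log2 values and 13 with only the compared groups and a replicate block. For the difference between changes with age, DESeq2 passed 2 members, math-41 and bath-27, none passed without the libraries numbered 1, and 0 to 2 on leaving out 1 library. With a replicate block 28 rose and 9 fell in N2, 20 and 10 in mutants, and 0, 11 and 1 passed in the other tests. The block with only the compared groups and the omission of the libraries numbered 1 were chosen after seeing the data. No called value changed sign. Upper-quartile factors moved the median of all genes with age in N2 from -0.09 to -0.22 and that of the members from 0.50 to 0.37. The deposited log2 values, shrunken by their method, gave smaller changes, such as 1.03 for math-41 between genotypes at day 5. In the other tests the cause of lost calls was not tested. Members with a few counts per library are limited by depth.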
